A study of Helianthus annuus with 24 samples.

Results

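Floral nectaries of 2 sunflower (Helianthus annuus) lines that make little nectar, lines 412 and 441, were set against leaf. The 6 low-line nectary libraries (3 per line) and the 3 leaf libraries are 9 of the 24 RNA-seq libraries of the series. The contrast was the mean of the line 412 and line 441 means minus the leaf mean, and it asks which nectary transcripts are present even where little nectar is made. Lines 412 and 441 are interspecific crosses, as are the high-nectar lines 434 and 467 and the medium-nectar lines 452 and 456, while ER is a maintainer line. No group carries a treatment. The greenhouse was kept at 23 °C with days of 16 h and nights of 8 h. Nectaries were dissected by hand 4 to 8 h after dawn, over several days, from mature, secreting florets of plants about 40 days old. Each nectary library held about 50 nectaries, and each replicate pooled nectaries of different plants. The sample labels give the leaf as line 434, a high-nectar line, whereas the series' design text gives it as the maintainer line ER. In neither case is the leaf from line 412 or 441, so tissue and line cannot be told apart in any low-line value set against leaf. These are bulk tissue samples, so fewer cells of a type and less RNA per cell cannot be told apart either.

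A floral nectary is a small gland at the base of the flower that turns phloem sucrose or stored starch into nectar. In Arabidopsis the YABBY factor CRABS CLAW (CRC) is needed to form the gland, and secretion runs through sucrose synthesis, the sucrose exporter SWEET9 and cell wall invertase, which splits the exported sucrose and so keeps the gradient for export. The factor MYB21 acts upstream of SWEET9 late in flower development. A leaf, by contrast, fixes carbon in chloroplasts, loads sucrose into the phloem and keeps transient starch.

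Values are normalized read numbers per assembled contig, scaled by the submitters to a common upper quartile and rounded, so a value near 1 stands for about 1 read (0.678 to 1.36 units per read in these 9 libraries). Contigs are named here by their deposited Arabidopsis match, and a name may cover several contigs. These may be paralogs, alleles or pieces of 1 transcript, and reads of near-identical copies may be split among them. The lengths needed to rank genes by level are not in the table, so each contig is compared only with itself. The low-line libraries held an estimated 9.38 to 16.09 M reads and the leaf libraries 11.1 to 14.83 M. Replicates of a group correlated across contigs at Pearson's r of 0.951 to 0.973.

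Markers of leaf photosynthetic cells and of stamens and carpels followed the labels, while ovule markers were higher in leaf and others were mixed. Their counts are to be read beside 45.4% called higher and 22.9% called lower over all contigs. The summed level of 12 contigs for leaf photosynthetic cells was 703 to 1501 in the low-line nectaries and 470166 to 712496 in leaf, and 11 of the 12 were called lower. All 5 contigs of the stamen and carpel genes AG, PI and AP3 were called higher, with sums of 17124 to 22287 against 154 to 267. The 3 contigs of the ovule genes STK and BEL1 were all called lower, with sums of 225 to 420 against 2349 to 3008, and STK was at 0 to 7 in the low libraries. For pollen only ANX1 and ANX2, of 8 marker genes, had a match, and 4 of their 6 contigs were called higher (sums of 1331 to 3529 against 680 to 696). Of those 4, only 2 had no overlap with leaf. For line 412 alone 4 pollen contigs were called higher, and for line 441 alone 2. Of 8 phloem contigs tested 6 were called higher and 1 lower, with overlapping sums of 12344 to 18806 and 9722 to 15640. For guard cells, where only OST1 had a match, 3 of 8 contigs were higher and 3 lower (sums of 1247 to 1646 against 2112 to 2163). For trichomes 1 of 3 was higher and 1 lower, with overlapping sums of 215 to 300 and 186 to 240. The higher call was lost after rescaling and without leaf replicate 1 or leaf replicate 3, and the lower call without leaf replicate 3, line 412 replicate 2 or line 441 replicate 3. The part of other floral cells in the results below was not tested.

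Of 39981 contigs tested, 68.4% passed the threshold for a call, a limma p adjusted by Benjamini-Hochberg of under 0.05. Of all tested, 18161 (45.4%) were called higher in the low-line nectaries and 9173 (22.9%) lower. The counts were 16258 (40.7%) higher and 8074 (20.2%) lower for line 412 alone and 16739 (41.9%) and 8944 (22.4%) for line 441 alone. The 2 lines share the same leaf libraries. In 13542 contigs both lines were called higher and no low library overlapped a leaf library, and 7007 met the same standard in the lower direction. Changes of at least 5 on the log2 scale were seen in 1505 contigs called higher and 1722 called lower. The excess of higher calls depends on the scaling. The median contig was 0.56 higher on the log2 scale in the low lines, and after rescaling by median ratio it was 0.08 higher. Higher calls made up 66.4% of all calls as deposited and 50.4% after that rescaling. The shift of 0.48 applies to every change against leaf given below, and calls that it ends are named. It does not apply to differences among nectary lines. There the shift was 0.0109 for low against high lines and -0.011 for line 412 against line 441. The bar chart of the gene lists sets the share called in each list beside the 45.4% and 22.9% of all contigs.

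**Figure D1:**
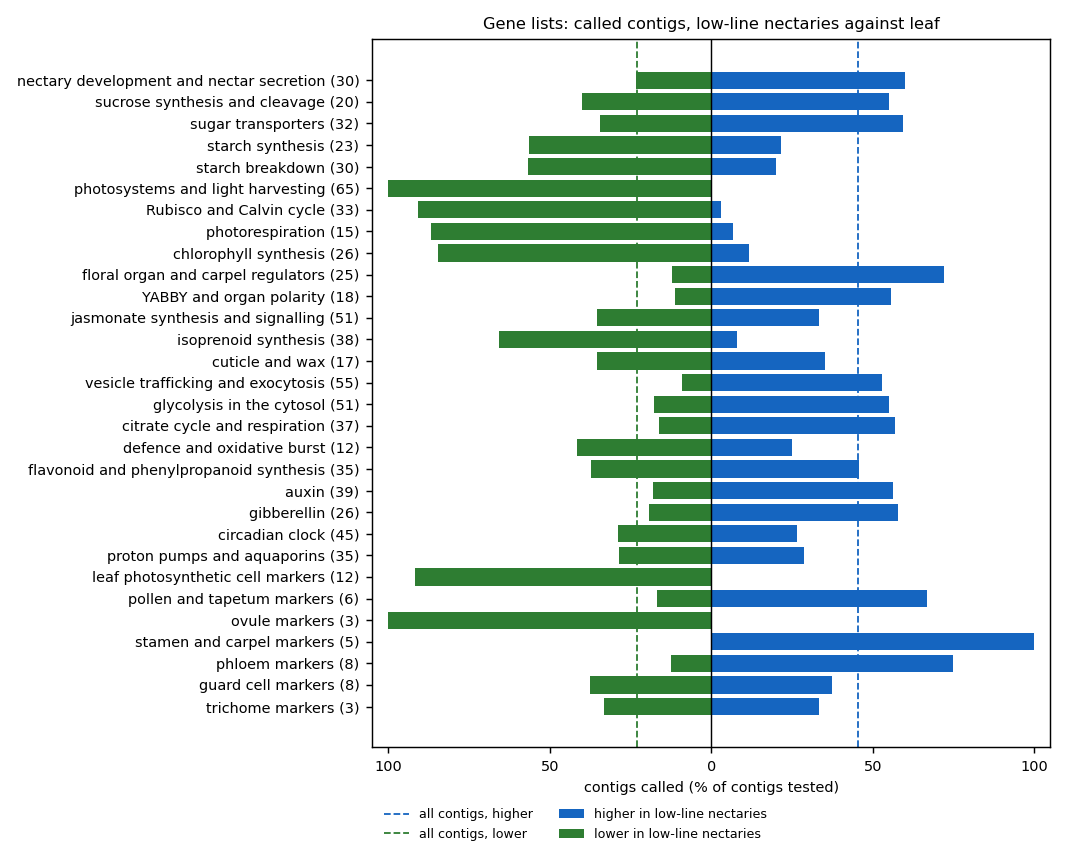
Contigs called higher (blue, right) and lower (green, left) in low-line nectaries than in leaf, as a percentage of the contigs tested in each gene list, with the number tested in parentheses. Dashed lines mark the shares over all 39981 contigs, 45.4% higher and 22.9% lower. All 65 photosystem contigs were lower and all 5 stamen and carpel contigs were higher.

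A sucrose exporter, a cell wall invertase and sucrose synthases were far above leaf in the low lines, while the lists of sucrose genes and sugar carriers went both ways. SWEET9 (contig Helianthus17324), whose protein exports sucrose from nectary cells in Arabidopsis, stood at 13632, 18238 and 16480 in line 412, at 30301, 26848 and 10590 in line 441 and at 71, 74 and 67 in leaf. Every low library exceeded every leaf library, and the log2 difference was 7.98 ± 0.50 (SE, adjusted p = 2.33e-11). The invertase of the cell wall CWINV2 (Helianthus23193) read 31534 to 38331 in line 412, 24296 to 67684 in line 441 and 74, 52 and 49 in leaf. Its groups did not overlap, with a log2 difference of 9.29 ± 0.30 (adjusted p = 9.64e-16). No contig of the table was matched to CWINV4, the invertase that acts in Arabidopsis nectaries. SUS4 (Helianthus24021), a sucrose synthase that cleaves sucrose inside the cell, ranged from 3548 to 6361 in the low libraries (median 5010) against 185, 311 and 268 in leaf. This was 4.28 ± 0.45 higher on the log2 scale (adjusted p = 6.58e-08), and a second sucrose synthase, SUS3 (Helianthus35523), was 3.87 higher.

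The most abundant contig of the sucrose phosphate synthase SPS1F, which makes sucrose, differed little. SPS1F (Helianthus37345) ranged from 1924 to 3583 in the low libraries and read 1955, 1693 and 1638 in leaf, so the groups overlapped in 1 low library. Its log2 difference of 0.54 ± 0.19 passed the threshold (adjusted p = 0.0141), but not after rescaling by median ratio (0.07, adjusted p = 0.752) or without leaf replicate 3 (adjusted p = 0.0596). Over the whole sucrose list, 11 of 20 contigs (55%) were called higher and 8 (40%) lower, beside 45.4% and 22.9% over all contigs. The median log2 change was 1.35 against 0.56 for all contigs. Vacuolar invertase contigs matched to BFRUCT3 went both ways. Helianthus42157 ranged from 530 to 1788 in the low libraries against 2, 2 and 1 in leaf, whereas Helianthus21984 ranged from 2 to 43 against 1558, 1375 and 1505. The sum of the 6 BFRUCT3 contigs was 2200 to 5910 in the low libraries and 1888 to 2288 in leaf, so the total overlapped although single contigs were far apart.

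Sugar carriers were divided in the same manner, with 19 of 32 contigs (59.4%) called higher and 11 (34.4%) lower (median 1.31). Over all contigs these shares were 45.4% and 22.9%. SWEET7 (Helianthus15801) and SWEET1 (Helianthus21127), sugar facilitators of the same family as SWEET9, were near 0 in leaf. SWEET7 read 3465, 4678 and 3777 in line 412, 6788, 1939 and 5314 in line 441, and 6, 7 and 0 in leaf, a log2 difference of 10.04 ± 0.72 (adjusted p = 1.94e-10). SWEET1 ranged from 7670 to 18917 in the low libraries against 39, 23 and 24 in leaf (8.75 ± 0.33). SWEET10 (Helianthus10294) ranged from 2894 to 20641 against 49, 26 and 34, and the vacuolar sucrose carrier SUC4 (Helianthus1789) from 847 to 1325 against 126, 71 and 67. None of these 4 overlapped leaf. The carriers that were lower included PMT5, a polyol and monosaccharide carrier. Contig Helianthus3236 ranged from 265 to 390 against 9292, 15604 and 10350 in leaf, and a second PMT5 contig (Helianthus22491) was listed at 0 in all 6 low libraries and at 526, 1587 and 1204 in leaf. SUC2, the phloem sucrose loader, had 1 contig (Helianthus11104) at 16 to 76 against 3328, 4968 and 5089 and another (Helianthus38937) at 6794 to 12537 against 5179, 8350 and 5292. The latter was 0.75 ± 0.28 higher (adjusted p = 0.0217), a call that ended after rescaling and without 1 of leaf replicate 1, leaf replicate 3 or line 412 replicate 1 (adjusted p from 0.0508 to 0.418). The sum of the 2 SUC2 contigs overlapped, at 6815 to 12613 in the low libraries and 8507 to 13318 in leaf. SWEET12, a sucrose exporter of phloem parenchyma, was likewise split, with Helianthus27224 at 1155 to 5020 against 429, 299 and 273 and Helianthus36595 at 1 to 9 against 856, 886 and 690.

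**Figure D2:**
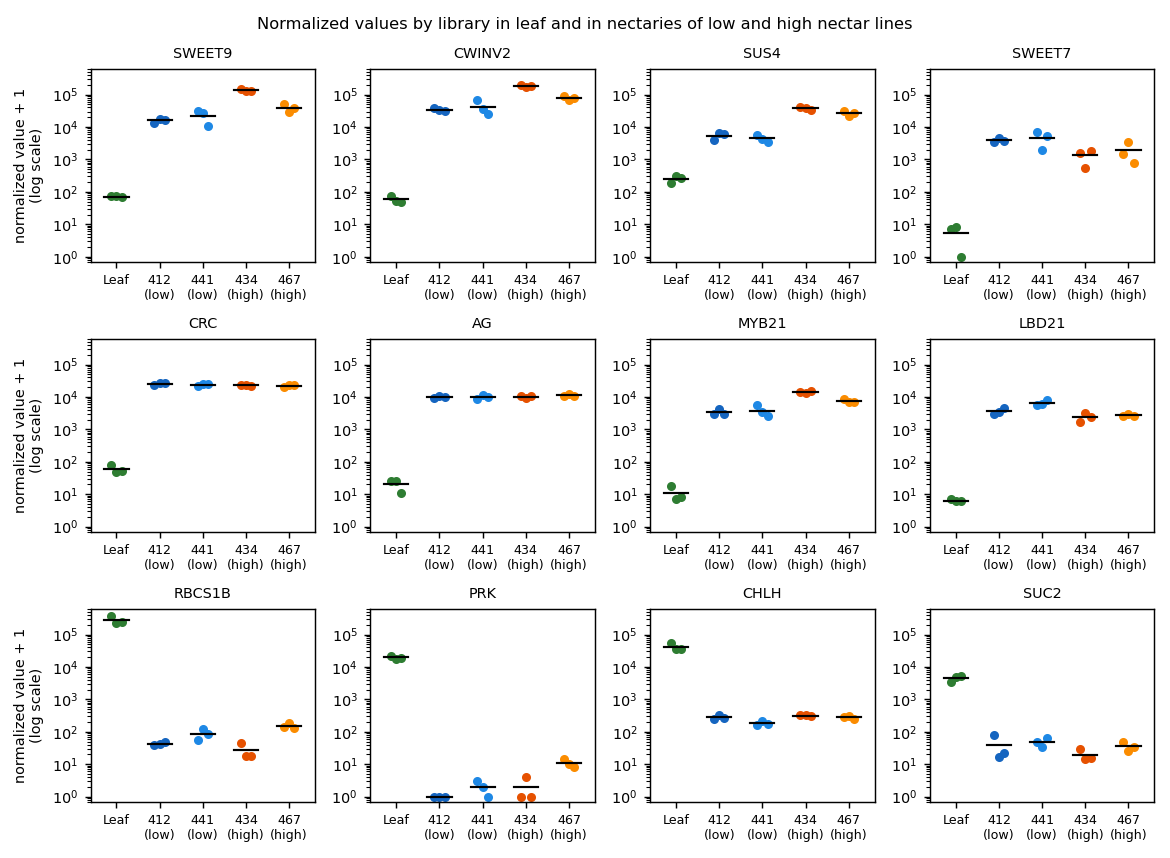
Normalized value plus 1 (log axis) of 12 contigs in each of 3 libraries of leaf, the low lines 412 and 441 and the high lines 434 and 467, with black bars at the group means. SWEET9, CWINV2, SUS4, SWEET7, CRC, AG, MYB21 and LBD21 lie above leaf in every low library, and RBCS1B, PRK, CHLH and the SUC2 contig Helianthus11104 lie below it. SWEET9, CWINV2, SUS4 and MYB21 are higher in lines 434 and 467 than in the low lines, while CRC is level.

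Set against the high-nectar nectaries, the same sugar genes did not all stand at the same distance. This comparison used the 21 nectary libraries and no leaf, and 31.2% of 38457 contigs were called, of which 7265 (18.9% of all) were higher in the low lines and 4718 (12.3%) lower. Without line 452 replicate 3, which enters this comparison only through the estimate of spread and the filter on the mean, the second count was 8394. That library had 3903 contigs at 0, against 1291 to 2620 in the 9 low-line and leaf libraries. The log2 difference of SWEET9, low minus high lines, was -1.99 ± 0.44 (adjusted p = 0.00199), with 28265 to 148424 in the high libraries. The high and low libraries overlapped for SWEET9, since 1 low library reached 30301. The 2 high lines were far apart, with SWEET9 at 127869 to 148424 in line 434 and 28265 to 52938 in line 467. The log2 difference of CWINV2 was -1.72 ± 0.26 (adjusted p = 6.08e-05), with 175180 to 197054 in line 434 and 69306 to 87252 in line 467. SUS4 differed by -2.70 ± 0.39 (adjusted p = 3.39e-05), with 21404 to 40544 in the high libraries, and neither of these 2 overlapped. SWEET10 differed by -2.46 ± 0.61 (adjusted p = 0.00478). The sum of the 2 SWEET10 contigs overlapped, at 2906 to 20661 in the low libraries and 14817 to 81811 in the high ones. In contrast SWEET12 contig Helianthus27224 was 3.83 ± 0.70 higher in the low lines, at 13 to 670 in the high libraries, and SWEET2 (Helianthus1180), a vacuolar sugar carrier, was at 135 to 382 in the low libraries and at 1 to 3 in the high ones. CWINV3 (Helianthus40841), of the same invertase family, ranged from 1403 to 2067 in the low libraries and 1173 to 1915 in the high ones and was not called (adjusted p = 0.113). The medium lines 452 and 456 were not tested against the low lines here. There SWEET9 ranged from 10255 to 24873 in line 452 and 7069 to 66552 in line 456. CWINV2 ranged from 12445 to 34847 and 4692 to 8573, and SUS4 from 1518 to 7141 and 1191 to 7088, in the same order. In the maintainer line ER, also not tested, SWEET9 ranged from 140176 to 197058, CWINV2 from 183722 to 245946 and SUS4 from 19874 to 31397.

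Contigs of regulators that specify the nectary and the flower were also among those far above leaf. CRC (Helianthus1659) read 23026, 26996 and 27612 in line 412, 21421, 24787 and 24868 in line 441 and 77, 48 and 50 in leaf. The difference of 8.73 ± 0.15 on the log2 scale (adjusted p = 6.62e-19) is that of groups with no overlap and little spread. CRC in the high lines ranged from 20564 to 23789, a log2 difference of 0.13 ± 0.12 from the low lines that was not called (adjusted p = 0.455). A second CRC contig (Helianthus36845) ranged from 122 to 229 in the low libraries and was listed at 0 in leaf. MYB21 had 3 contigs above leaf. Helianthus32958 ranged from 2513 to 5513 against 17, 6 and 7 in leaf (8.43 ± 0.42, adjusted p = 5.69e-13), Helianthus32957 from 149 to 442 with leaf listed at 0, and Helianthus41482 from 930 to 1268 against 9, 0 and 12. The first of these was lower in the low than in the high lines (log2 difference -1.57 ± 0.34, adjusted p = 0.00154), as was the second (-2.24 ± 0.40, adjusted p = 0.000279), whereas the third was not called (0.11 ± 0.16, adjusted p = 0.631). In the medium lines Helianthus32958 ranged from 1636 to 3536 in line 452 and 773 to 4325 in line 456. Of 30 contigs on the list of nectary and secretion genes, 18 (60%) were called higher and 7 (23.3%) lower, with a median of 1.43. Over all contigs 45.4% were called higher and 22.9% lower, so the lower share was near that of all contigs. All 5 contigs of TPS21, a sesquiterpene synthase of Arabidopsis flowers, were near 0 in the low nectaries and summed to 7 to 29 against 12999, 12859 and 11664 in leaf.

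Of 25 contigs of floral organ identity genes, 18 (72%) were called higher and 3 (12%) lower, with a median of 3.51. Over all contigs these shares were 45.4% and 22.9%. AG (Helianthus13336), the class C gene of stamens and carpels, ranged from 8843 to 11186 in the low libraries against 25, 25 and 10 in leaf (512-fold higher, adjusted p = 5.64e-18) and was not called against the high lines (-0.10 ± 0.11, adjusted p = 0.52). SEP1 (Helianthus30406) and SEP2 (Helianthus30407), cofactors in all floral whorls, ranged from 1394 to 1867 and from 1046 to 1533, with leaf at 1 to 8. PI (Helianthus26317), a class B gene of petals and stamens, ranged from 142 to 276 against 1, 0 and 0. STK (Helianthus29199), an ovule gene, was lower than in leaf, at 0 to 7 against 431, 264 and 366. A FUL contig (Helianthus2219) was also lower, at 33 to 164 against 410, 392 and 477. The sum of the 4 FUL contigs overlapped, at 1432 to 2539 in the low libraries and 1445 to 2362 in leaf. AP1, a class A gene, was split between Helianthus21482, at 4643 to 5855 against 82, 135 and 91, and Helianthus24638, at 39 to 104 against 554, 392 and 472. In the list of YABBY and organ polarity genes, 10 of 18 (55.6%) were called higher and 2 (11.1%) lower, or 10 and 5 after rescaling. A contig of the YABBY gene FIL (Helianthus20544) ranged from 633 to 975 against 5, 1 and 3, and one of the leaf polarity gene REV (Helianthus191) from 78 to 117 against 645, 492 and 588. The 4 FIL contigs summed to 1660 to 2606 against 202 to 350, and the 4 REV contigs to 368 to 485 against 796 to 966.

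Other regulators were among the largest increases. A contig matched to the KNOX homeobox gene KNAT6 (Helianthus9325), of a family known for keeping meristem cells undifferentiated, read 975, 996 and 1009 in line 412, 1035, 1073 and 1244 in line 441, and 3, 0 and 1 in leaf (9.04 ± 0.25, adjusted p = 1.26e-16). A second knotted-like contig (Helianthus4007) ranged from 253 to 737 and was listed at 0 in leaf. Contigs matched to LOB domain genes, a plant family of boundary regulators, did the same. LBD21 (Helianthus17259) ranged from 3042 to 8094 against 6, 5 and 5 (9.57 ± 0.25) and LBD25 (Helianthus15983) from 1245 to 3033 against 5, 1 and 4 (8.99 ± 0.25). ARR9 (Helianthus21634), a cytokinin-induced response regulator, ranged from 2459 to 6067 against 7, 1 and 8 (9.44 ± 0.43). LBD21 was 0.91 ± 0.22 higher in the low than in the high lines (adjusted p = 0.00348), while the KNAT6 and LBD25 contigs were not called between them (adjusted p = 0.445 and 0.209).

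Photosynthesis formed the largest decreases. All 65 photosystem and light-harvesting contigs were called lower, beside 22.9% over all contigs, with a median log2 change of -7.95. They held 0.0826 to 0.199% of the summed values in low-line libraries against 11.8 to 14.5% in leaf. Against the high lines, 36 of 55 tested were called higher in the low lines and 3 lower, beside 18.9% and 12.3% over all contigs. In the Rubisco and Calvin cycle list 30 of 33 were lower than leaf and 1 higher, beside 22.9% and 45.4% over all contigs, with a median of -9.85. The Rubisco small subunit RBCS1B (Helianthus41497) ranged from 38 to 120 in the low libraries against 384699, 227290 and 245681 in leaf. Phosphoribulokinase, PRK (Helianthus35151), which regenerates the CO2 acceptor, was at 0 to 2 against 21999, 17449 and 19278, and a contig matched to carbonic anhydrase 1 (Helianthus3533) was at 0 or 1 against 51464, 24173 and 21824. The contigs that went the other way were few. The single Calvin cycle contig called higher was a phosphoglycerate kinase, PGK1 (Helianthus14611), at 388 to 612 against 199, 304 and 174, and its call (1.15 ± 0.42, adjusted p = 0.0196) ended after rescaling (adjusted p = 0.108) and without leaf replicate 1 (0.0623) or leaf replicate 3 (0.0891).

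Photorespiration and chlorophyll synthesis followed, with 13 of 15 and 22 of 26 contigs called lower (medians -7.89 and -5.07), beside 22.9% over all contigs. The peroxisomal glycolate oxidase GOX1 (Helianthus39318) ranged from 1 to 13 against 73531, 61112 and 65836 in leaf. CHLH (Helianthus37239), the subunit of magnesium chelatase that holds the porphyrin, ranged from 164 to 321 against 52917, 35274 and 36685. Exceptions were a glycine decarboxylase contig, GLDP2 (Helianthus16826), at 341 to 658 against 81, 87 and 118 (2.30 ± 0.25, adjusted p = 7.82e-08), and a glutamyl-tRNA reductase contig, HEMA1 (Helianthus24695), at 115 to 324 against 54, 75 and 56. For both genes the sum over contigs was lower than in leaf, at 342 to 659 against 1391 to 1622 for GLDP2 and 396 to 635 against 6251 to 11872 for HEMA1.

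Starch genes were lower on balance, with 13 of 23 synthesis contigs and 17 of 30 breakdown contigs called lower and 5 and 6 called higher. The lower shares were 56.5% and 56.7%, beside 22.9% over all contigs. The higher shares were 21.7% and 20%, beside 45.4%. The ADP-glucose pyrophosphorylase subunit APL1 (Helianthus25405), which commits glucose to starch, ranged from 5 to 8 against 9547, 6459 and 6764 in leaf. The granule-bound starch synthase GBSS1 (Helianthus23117), which makes amylose, ranged from 90 to 146 in line 412 and 23 to 50 in line 441 against 6865, 5553 and 5247. The beta-amylase BAM5 (Helianthus38309) was at 0 to 5 against 2702, 1514 and 1466. Contigs that were higher included an alpha-amylase, AMY1 (Helianthus10100), at 369 to 1140 against 26, 124 and 56 (3.51 ± 0.60, adjusted p = 3.5e-05), and the glucan water dikinase GWD1 (Helianthus18079), which primes granules for breakdown, at 431 to 575 against 18, 14 and 15 (4.90 ± 0.29). AMY1 was 1.71 ± 0.47 above the mean of the high lines (adjusted p = 0.00992), where it ranged from 79 to 380. The GWD1 contig differed from that mean by 2.79 ± 0.25 (adjusted p = 9.86e-08), but only line 434, at 6 to 13, was lower, and line 467 stood at 471 to 636. By contrast the sum of the 3 GWD1 contigs was 1190 to 1414 in the low libraries, 433 to 620 in leaf and 152 to 1570 in the high ones.

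Genes of sugar breakdown went both ways. Of 51 contigs of cytosolic glycolysis 28 (54.9%) were called higher and 9 lower (median 0.92), beside 45.4% higher over all contigs, and after rescaling the counts were 26 and 14. The list's summed level overlapped leaf, at 54773 to 71055 in the low libraries and 55281 to 65111 in leaf. Pyruvate decarboxylase PDC2 (Helianthus11537) ranged from 125 to 231 against 3, 4 and 3, and alcohol dehydrogenase ADH1 (Helianthus13275) from 1244 to 4408 against 93, 114 and 71 (4.72 ± 0.38, adjusted p = 1.16e-09), the enzymes of ethanol fermentation. The sum of the 4 PDC2 contigs was 1075 to 1366 against 785 to 1176 and so overlapped leaf. Phosphofructokinase contigs went the other way, with PFK7 (Helianthus31996) at 15 to 62 against 402, 662 and 585 and PFK3 (Helianthus31986) at 266 to 479 against 1926, 2389 and 2168. The 3 PFK3 contigs summed to 1591 to 2108 against 2651 to 3120. For the citrate cycle and respiration, 21 of 37 were higher and 6 lower (median 0.58, beside 0.56 for all contigs), but 9 and 9 after rescaling, and 3 were lower without leaf replicate 1. A contig of cytochrome c, CYTC1 (Helianthus2008), ranged from 237 to 361 against 43, 42 and 58, and the 2 CYTC1 contigs summed to 1850 to 2574 against 1050 to 1146. A contig of the alternative oxidase AOX1A (Helianthus34746) ranged from 5 to 25 against 1978, 1575 and 1509. The sums of the 2 AOX1A contigs were much closer, at 1384 to 2423 in the low libraries and 2432 to 2716 in leaf. Against the high lines, 24 of 51 glycolysis contigs were called lower in the low lines and 2 higher, and 18 of 36 citrate cycle and respiration contigs were lower and 1 higher, beside 12.3% lower over all contigs. Mitochondrial malate dehydrogenase MMDH1 (Helianthus12721) was an example, at 961 to 1239 in the low libraries, 1703 to 2879 in the high ones and 3096, 2436 and 1860 in leaf.

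Vesicle trafficking genes, which carry cargo to the plasma membrane, were called higher in 29 of 55 contigs (52.7%) and lower in 5 (9.09%), with a median of 0.85. Over all contigs these shares were 45.4% and 22.9%. After rescaling 19 were higher and 14 lower. Without leaf replicate 2 or leaf replicate 3 the lower count was 3. The plasma membrane syntaxin SYP132 (Helianthus7331) ranged from 46 to 109 and was listed at 0 in leaf. The clathrin heavy chain CHC2 (Helianthus26042) ranged from 44 to 141 against 3, 5 and 0 in leaf and 1 to 8 in the high lines. The sum of the 8 CHC2 contigs overlapped, at 2500 to 3525 in the low libraries and 2876 to 3343 in leaf. A contig of GNOM (Helianthus25025), an exchange factor of vesicle sorting, was lower, with 85 to 129 against 239, 179 and 162 (-0.77 ± 0.18, adjusted p = 0.0011). The sum of the 2 GNOM contigs overlapped, at 156 to 251 in the low libraries and 230 to 320 in leaf. Between low and high lines 5 of 55 were called in each direction, beside 18.9% higher and 12.3% lower over all contigs.

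Of 51 jasmonate contigs, 17 (33.3%) were called higher and 18 (35.3%) lower (median -0.08), beside 45.4% and 22.9% over all contigs. After rescaling the counts were 14 and 24. The summed level of the list was below leaf without overlap, at 13565 to 35717 in the low libraries and 55842 to 64187 in leaf. LOX2 (Helianthus17875), the chloroplast lipoxygenase that starts jasmonate synthesis, ranged from 5 to 55 against 44816, 30498 and 35096 in leaf (log2 difference -11.11 ± 0.51, adjusted p = 1.45e-13). The repressor JAZ10 (Helianthus19613), itself induced by jasmonate, read 1107, 412 and 61 in line 412, 310, 84 and 193 in line 441 and 0, 4 and 16 in leaf (5.71 ± 0.92 higher, adjusted p = 1.67e-05). A JAZ1 contig (Helianthus39413) ranged from 48 to 339 against 3, 5 and 3, but the 5 JAZ1 contigs summed to 2385 to 7706 against 1243 to 1721. A contig of the jasmonate methyltransferase JMT (Helianthus37915) was listed at 0 in all 6 low and all 6 high libraries and at 149, 211 and 166 in leaf.

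In the auxin list 22 of 39 contigs (56.4%) were called higher and 7 (17.9%) lower (median 1.43). In the gibberellin list these were 15 of 26 (57.7%) and 5 (19.2%), with a median of 0.99, and over all contigs 45.4% and 22.9%. The GH3 enzymes, which conjugate auxin and so inactivate it, led the list: GH3.5 (Helianthus6006) ranged from 434 to 1239 against 11, 6 and 4 (6.83 ± 0.54, adjusted p = 8.08e-10), GH3.6 (Helianthus6008) from 67 to 256 against 1, 0 and 0, and GH3.3 (Helianthus20254) from 67 to 173 against 0, 1 and 0. The 3 GH3.6 contigs summed to 520 to 1233 against 117 to 190. A contig of the repressor IAA14 (Helianthus35167) was lower, at 38 to 149 against 1904, 969 and 1182. The sum of the 3 IAA14 contigs overlapped, at 492 to 1625 in the low libraries and 1335 to 2661 in leaf. The auxin importer AUX1 was split, with Helianthus4169 at 16 to 64 against 415, 371 and 414 but a sum over 4 contigs of 1159 to 1573 against 521 to 611. Among gibberellin genes, GA2OX2 (Helianthus39671), which inactivates gibberellin, ranged from 521 to 1641 against 1, 4 and 4 (7.92 ± 0.39, adjusted p = 4.63e-13), and the synthesis enzyme KO (Helianthus4189) from 184 to 289 against 596, 639 and 741. KAO1, a later synthesis enzyme, was near 0 in leaf and in the high lines. Helianthus20665 ranged from 591 to 1049 in the low libraries, 0 to 32 in leaf and 0 to 3 in the high ones (9.02 ± 0.97 above the high lines, adjusted p = 1.1e-06). The sum of both KAO1 contigs, the only ones of that match, was 960 to 1390, 2 to 39 and 0 to 7 in the same order. In the other nectary lines Helianthus20665 ranged from 319 to 395 in ER, 0 to 309 in line 452 and 0 to 1 in line 456.

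Isoprenoid synthesis was mostly lower. In its list 25 of 38 contigs (65.8%) were lower and 3 (7.9%) higher (median -1.55), beside 22.9% and 45.4% over all contigs. The plastid enzyme DXR (Helianthus36609) ranged from 1 to 25 against 72612, 49835 and 57188 in leaf, and the 5 DXR contigs together from 597 to 701 against 53273 to 75640. Of the cytosolic enzyme HMGR1, contig Helianthus4530 was higher, at 897 to 1339 against 127, 141 and 139 (3.01 ± 0.14, adjusted p = 1.4e-13). Helianthus4532 was also higher, at 213 to 408 against 11, 17 and 11. The 3 HMGR1 contigs together were at 1266 or more in every low library and at 386 to 1044 in leaf. Their sum thus differed by much less than either of these contigs. In the cuticle and wax list, 6 of 17 (35.3%) were called in each direction (2 higher and 9 lower after rescaling). The alkane synthesis gene CER1 (Helianthus17270) ranged from 4050 to 7352 against 681, 1701 and 1031, and CER2 (Helianthus42181), of wax chain elongation, was listed at 0 in all 6 low libraries and at 205, 189 and 137 in leaf.

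In phenylpropanoid and flavonoid synthesis 16 of 35 (45.7%) were higher and 13 (37.1%) lower (median 0.11). Over all contigs these shares were 45.4% and 22.9%. F5H (Helianthus30697), the ferulate hydroxylase of syringyl lignin, ranged from 4481 to 6574 in line 412 and 9777 to 11581 in line 441 against 202, 93 and 146 in leaf (5.75 ± 0.25, adjusted p = 7.91e-14). It was also 1.78 ± 0.19 above the high lines (adjusted p = 9.38e-07), where it ranged from 1697 to 3071. The flavonoid hydroxylase F3'H (Helianthus27324) ranged from 5873 to 8686 against 46, 343 and 328. The alcohol dehydrogenase of lignin synthesis CAD5 (Helianthus14689) had the reverse standing, at 55 to 201 in the low libraries, 665 to 1122 in the high ones and 0 in leaf (-3.12 ± 0.54, low minus high lines, adjusted p = 0.00021).

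Clock, water channel and defence genes gave mixed counts, to be read beside 45.4% higher and 22.9% lower over all contigs. In the clock list 12 of 45 were higher and 13 lower, and after rescaling 8 and 18. The higher count was 19 without line 452 replicate 3, and 20 with sample weights or with the 9 low-line and leaf libraries alone. The harvest hour of the leaf is not given in the sources used here. FKF1 (Helianthus37703), a blue-light receptor of the day, ranged from 174 to 480 against 6, 14 and 11. GI, its partner, had 1 contig (Helianthus13505) listed at 0 in all low libraries against 126, 166 and 171 in leaf and 17 to 53 in the high lines, while the sum of the 8 GI contigs overlapped at 2775 to 4953 and 3380 to 4338. In the list of proton pumps and aquaporins 10 of 35 were called in each direction, and after rescaling 7 were higher and 16 lower. A contig of the plasma membrane aquaporin PIP2;2 (Helianthus31571) ranged from 5 to 60 against 12562, 10804 and 11918. The 3 PIP2;2 contigs summed to 2380 to 6452 in the low libraries and 12016 to 13572 in leaf. The vacuolar aquaporin TIP2;1 (Helianthus37778) ranged from 531 to 1028 against 13582, 14099 and 17063. Of 12 contigs for defence and the oxidative burst 3 were higher and 5 lower, and without leaf replicate 2 the higher count was also 5. The chitinase PR3 (Helianthus8989) ranged from 4 to 13 against 682, 735 and 962. A contig of the oxidase RBOHD (Helianthus41178) ranged from 29 to 109 with leaf listed at 0. The sum of the 2 RBOHD contigs overlapped, at 316 to 436 in the low libraries and 272 to 406 in leaf.

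A stricter description takes contigs at 100 or more in every low library and at 10 or less in every leaf library. These thresholds chose 398 contigs of 42063, of which 184 (46.2%) had an Arabidopsis match. By construction they separate nectary from leaf, so only their level in the other nectary lines is informative. For scale, 74 of them had their lowest low library between 100 and 120, and 120 further contigs had it between 80 and 99. Of the 398, 229 (57.5%) were at 100 or more in every library of the high line 467 and 181 (45.5%) in those of the high line 434. For the medium lines 452 and 456 the counts were 228 (57.3%) and 233 (58.5%), and for the maintainer line ER 206 (51.8%). All 15 other nectary libraries reached 100 for 88 contigs (22.1%). Among all 12700 contigs at 100 or more in every low library, that share was 69.7%.

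The line of the leaf bears directly on this set. Of the 398, 106 (26.6%) were at 10 or less in every nectary library of line 434 also, the line the labels give for the leaf, and 21 (5.28%) in every nectary library of ER, the line the design text gives. These 106 and 21 contigs were thus near 0 in both the leaf and the nectary of the line concerned. Line 467 was at 10 or less for 67 (16.8%), line 456 for 60 (15.1%) and line 452 for 3 (0.754%), and 1 contig was at 10 or less in all 15 libraries. An example with a match is a transmembrane protein contig (Helianthus22777), at 912 to 1694 in the low libraries, 2 to 6 in leaf and 1 to 4 in the high lines. The 2 contigs of the match summed to 2729 to 4479, 116 to 125 and 485 to 1450. A contig of the set that was low but not at 10 or less throughout any other line was one of a nucleic acid-binding protein family (Helianthus819), at 1309 to 1648, 0 or 1, and 11 to 27. The 3 contigs of its match summed to 2449 to 5195 in the low libraries, 1775 to 2378 in leaf and 787 to 5848 in the high ones. Contigs of the set that were also present in the high lines include an acyltransferase family member (Helianthus9322) at 1009 to 3724, a Bax inhibitor-1 family member (Helianthus27284) at 1592 to 2445, a nodulin MtN21 family transporter (Helianthus12461) at 1704 to 3488 and a lipid transfer family member (Helianthus41787) at 1351 to 2701 in the low libraries, each at 0 to 7 in leaf. Their high-line libraries ranged over 118 to 3704, 2499 to 4223, 731 to 1574 and 916 to 2158.

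**Figure D3:**
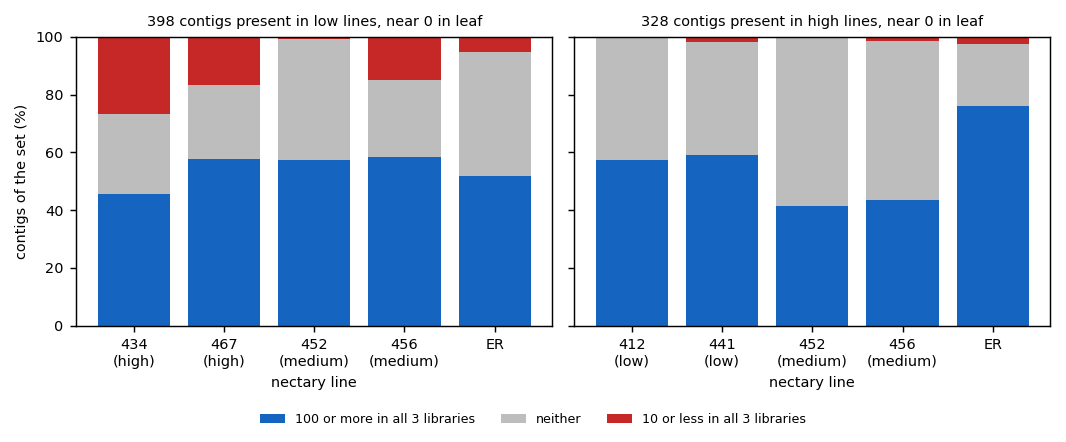
Share of contigs (%) at 100 or more in all 3 libraries of a nectary line (blue), at 10 or less in all 3 (red) or neither (grey). Left, 398 contigs at 100 or more in every low library and 10 or less in leaf, of which 26.6% are at 10 or less in line 434 and 0.754% in line 452; right, 328 contigs at 100 or more in every high library and 10 or less in leaf, of which 0% are at 10 or less in line 412 and 1.83% in line 441.

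The converse set was read in the low lines. Of 42063 contigs, 328 were at 100 or more in all 6 high libraries and at 10 or less in leaf. Of these 163 (49.7%) were at 100 or more in all 6 low libraries and 165 (50.3%) lay between. In no case were all 6 low libraries at 10 or less, although 6 contigs (1.83%) were at 10 or less in all 3 libraries of line 441. Of the 398 contigs of the low lines, 62 (15.6%) were at 10 or less in all 6 high libraries. The high and low sets are not alike in how they were chosen. The labels give the leaf as a high-nectar line, and the high set had to reach 100 in the nectaries of that same line. If the labels hold, contigs absent from that line can enter only the low set. Nothing is therefore read from the difference between these counts. In the nectary fit 233 of the 398 (58.5%) were called higher in the low than in the high lines, beside 18.9% of all contigs, and 35 (8.79%) lower, and a high minimum in the low libraries was part of how they were chosen. An opposite set, at 100 or more in every leaf library and at 10 or less in every low one, held 719 contigs, and 500 of them (69.5%) were at 10 or less in all 6 high libraries as well.

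Some contigs called above leaf in the low lines were far higher still in the high lines. An AMP-dependent synthetase and ligase family contig (Helianthus9373) ranged from 102 to 562 in the low libraries, 3621 to 10446 in the high ones and 4 to 10 in leaf (-4.50 ± 0.54, low minus high lines, adjusted p = 3.71e-06). A laccase 5 contig (Helianthus32099) ranged from 83 to 493, 1226 to 4038 and 2 to 11 in the same order (-3.67 ± 0.62, adjusted p = 0.000193). A contig of the invertase and pectin methylesterase inhibitor family (Helianthus39157) ranged from 3027 to 6157, 11877 to 13770 and 5 to 10 (-1.58 ± 0.17, adjusted p = 1.46e-06).

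Between the 2 low lines 5.98% of 38457 contigs were called, and 1669 (4.34%) were called higher in line 412 and 629 (1.64%) in line 441. Without line 452 replicate 3 the second count was 1387. Of the 398 contigs, which were chosen to be at 100 or more in both lines, 3 were called higher in line 412 and 5 in line 441, and nothing is read from that count. Several contigs were present in 1 low line and near 0 in the other. A polyubiquitin 10 contig (Helianthus28038) read 861, 818 and 971 in line 412, 1, 0 and 0 in line 441 and 0 in each leaf library (9.45 ± 0.39 between the lines). An aquaporin contig matched to PIP1;4 (Helianthus19480) read 431, 335 and 369 in line 412 and 0 in line 441, line 434 and leaf, and a peroxidase contig (Helianthus6509) read 563, 464 and 434 in line 412 and 0 in line 441. The peroxidase contig was called above leaf (adjusted p = 4.73e-05), but not with the 6 low libraries taken as 1 group (adjusted p = 0.0841). SEC8 (Helianthus652), an exocyst subunit, read 37, 43 and 46 in line 412 and 1023, 1145 and 1357 in line 441, beside 1473, 1297 and 1072 in leaf, so its call below leaf (-2.51 ± 0.19) came with overlap between line 441 and leaf. Summed over all contigs of the match, polyubiquitin 10 was 9751 to 15195 in line 412 and 5174 to 6045 in line 441, PIP1;4 was 18827 to 22157 and 10247 to 15403, and SEC8 was 298 to 371 and 1299 to 1692. The sums of polyubiquitin 10 and PIP1;4 differ by much less between the lines than the single contigs do, whereas the 2 contigs of the peroxidase match summed to 435 to 564 in line 412 and 0 in line 441.

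**Figure D4:**
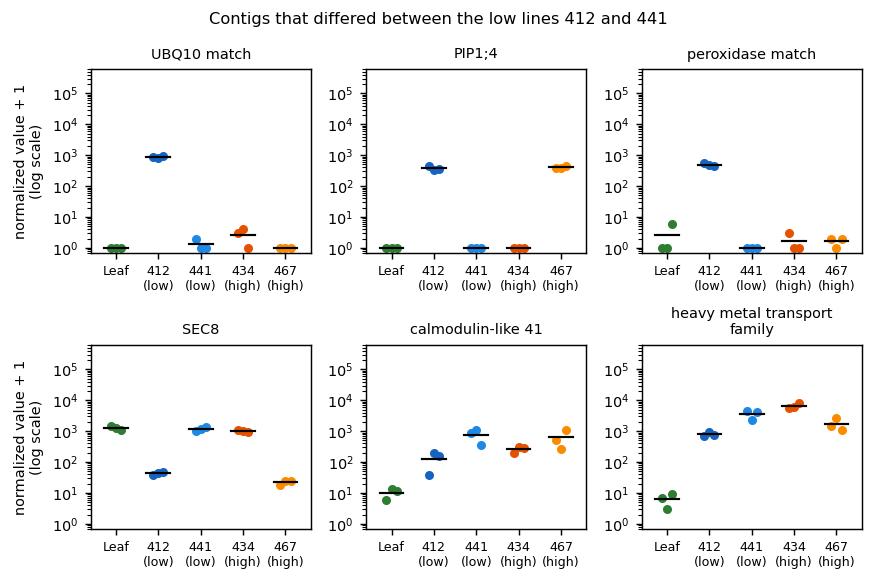
Normalized value plus 1 (log axis) of 6 contigs that differed between the low lines 412 and 441, in 3 libraries each of leaf and 4 nectary lines, with black bars at the group means. The polyubiquitin 10, PIP1;4 and peroxidase contigs lie at 335 or more in line 412 and at 0 or 1 in line 441, while the SEC8, calmodulin-like 41 and heavy metal transport contigs lie lower in line 412.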

How the data were processed

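RNA of 21 nectary and 3 leaf libraries was sequenced as 50 bp paired ends on a HiSeq 2500 from TruSeq RNA v2 libraries, per the labels' protocols. Each deposited value is an expression score of 1 contig that the authors scaled to a shared upper quartile, per the file headers, and the values are whole numbers. Which aligner, assembler and counter were used is not given in the sources used here. All per-sample columns were mapped to samples by their names, and the 16 group mean and SD columns were left out. The table pairs 18797 of 42063 contigs (44.7%) with an Arabidopsis gene. It holds no sequences or lengths.

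The steps between low values gave the value of 1 read and from it the reads per library. Count models do not suit such scaled scores. After log2(value + 1), limma (version 3.58.1, R 4.3.3) was run on contigs whose mean was at least 10, with a mean for every group and moderated, trended variances, and a call needed a p, adjusted by Benjamini-Hochberg, under 0.05. Fold differences are therefore on the log2(value + 1) scale, which understates changes of low contigs. Comparisons with leaf used all 24 libraries and those among nectaries the 21 nectary libraries. Errors are standard errors from limma, and p-values reflect the spread among 3 pools per group. The procedure was tested on simulated data. Replicate numbers did not pair the libraries, since same-numbered libraries deviated with correlations of -0.222 to 0.166.

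Named contigs are 8 genes fixed by name (the contig of highest mean), the 12 largest changes in each direction, up to 3 per direction in each of 30 gene lists, the highest contigs of the threshold sets, and the largest differences from the high lines and between lines 412 and 441, of which a part is given. A further 12 contigs, of SWEET2, SWEET10, SWEET12, SWEET15, SUC2, SUC4, PMT5, BFRUCT3, SUS3, AP1, MYB21 and FIL, were added after their values were seen. The comparison and the lists, written from general knowledge of Arabidopsis genes, were chosen with earlier results of these data known. Lists are described by counts and medians and carry no test. Alternatives were a larger added constant, other filters, rescaling by median ratio, sample weights, a replicate block, fits on fewer libraries, a minimum change, sums over contigs of 1 match and each library left out. Python 3.11.15, numpy 2.4.6, pandas 2.3.3 and matplotlib 3.10.9 were used.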

Additional observations from a re-analysis of the deposited data

Results flagged for a closer look

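Among the 6 low libraries, 1 library stood far from the others for 7 of the 117 named contigs examined (6%), and chance alone flags about 1 in 20 such groups. Line 441 replicate 1 was high for CWINV2 (67684, others 24296 to 38331) and CER1 (7352, others 4050 to 4829). Line 441 replicate 3 was high for the KNAT6 contig Helianthus9325 (1244, others 975 to 1073), and line 441 replicate 2 for LOX2 (55, others 5 to 21). Line 412 replicate 1 was high for JAZ10 (1107, others 61 to 412) and JAZ1 (339, others 48 to 120) and low for CHC2 (44, others 107 to 141).

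Lines 412 and 441 differed, by the limma fit on nectary libraries, in 17 of 119 named contigs tested, beside 5.98% of all contigs. Some of the 17 were named because they differed between these lines, so nothing is read from this count. The log2 differences, line 412 minus line 441, were 9.45 for the polyubiquitin 10 contig, 8.92 for the peroxidase contig Helianthus6509, 8.56 for PIP1;4, 7.39 for a heavy metal transport family contig (Helianthus14304), 7.10 for the ANX1 contig Helianthus16265, 3.42 for BAM2, 3.41 for SWEET15 and 1.86 for BAM9. They were -4.77 for SEC8, -2.79 for the WRKY70 contig Helianthus14424, -2.75 for the calmodulin-like 41 contig Helianthus10290, -2.30 for SHM1, -2.16 for a second heavy metal transport family contig (Helianthus9671), -2.08 for DXR, -1.69 for IAA14, -1.45 for AUX1 and -1.03 for F5H. The adjusted p ranged from 9.96e-12 to 0.0249. The calls for SHM1, BAM9, DXR, F5H, IAA14 and AUX1 were each lost without at least 1 library of these lines, with adjusted p up to 0.142.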

How the results depend on the processing

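No named contig changed direction under an alternative where it was called as reported or in that alternative. Changes of sign in contigs called in neither fit were not counted. Of 133 named contigs called against leaf, 7 lost the call under at least 1 of 19 settings, among them SPS1F, PGK1, the SUC2 contig Helianthus38937, CSD1, the peroxidase contig Helianthus6509 and GNOM. Of 67 called against the high lines 24 lost it, and of 17 between lines 412 and 441, 6. With a mean of at least 50, higher and lower calls were 11907 and 5834 against leaf and 11018 and 5746 for line 441, while lower calls for line 412 were 5161. That filter left 4759 contigs higher in low than in high lines, and 950 and 410 between lines 412 and 441. Sample weights gave 9219 lower than the high lines, and 3538 and 2202 between lines 412 and 441. Without line 452 replicate 3, which belongs to neither group, these were 8394 lower than the high lines and 1387 lower in line 412. Requiring a log2 change of at least 1 left 4346 and 2512 against the high lines. Summed by match, 4534 matches were higher and 2990 lower than leaf. The cause was not tested, except that stricter filters and sums hold fewer features. The replicate block changed no count by over 1.5 times (18222 higher and 9170 lower than leaf). Leaving out 1 library of the groups compared gave 15564 to 17932 higher and 8176 to 9045 lower than leaf (line 412 13786 to 15628 and 7189 to 7612, line 441 14430 to 16203 and 8046 to 8420). It gave 6241 to 6867 and 3936 to 4399 for low against high, and 1304 to 1451 and 450 to 488 for line 412 against 441. The threshold sets held 398 to 468 and 328 to 396 contigs with 1 library left out. Leaving out a library can only keep or enlarge such a set, and 398 and 328 are the sizes with all libraries. These 2 ranges therefore do not test stability. A value near 1 unit is about 1 read, so differences among the lowest values were not detectable at this depth.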
